A study of Mus musculus with 3 samples.

Results

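Potassium channels let potassium ions cross the cell membrane and set its resting voltage. Voltage-gated subunits open on depolarization and end action potentials. Inward rectifiers and the tandem-pore K2P leak channels hold cells near rest, and the calcium-activated BK and SK channels couple voltage to calcium. Astrocytes take up the potassium that firing neurons release, chiefly through inward rectifiers, while microglia use K2P channels to hold their own membrane potential. The genes described here are the 92 whose mouse symbol begins with Kcn, followed by a family letter code and a number, out of 32285 features measured. They cover 17 groups of subunits, among them 15 inward rectifiers (Kcnj), 14 K2P channels (Kcnk), 8 Kv1 channels (Kcna) and 5 KCNQ channels. Of the 92, 90 had a UMI (a counted molecule) in the cells kept, 75 had at least 50 UMIs, and Kcnk16 and Kcnk18 had none. The members were chosen by symbol alone, and they were left out of the genes used for clustering.

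Single cells from 3 brainstems were sequenced with the 10x Genomics 3' chemistry. Tumours 1 and 2 were untreated B6(Cg)-Tyrc-2J/J mice that had received 100000 cells of DIPG4423, a murine diffuse midline glioma line, at 6 weeks of age, with tissue taken 3 weeks later. The third library came from normal brainstem of the same strain, without tumour and also labelled untreated. The graft is 1 cell line, and the normal group is 1 library, so its values have no spread between animals. The libraries held 151906460, 157114723 and 15035292 UMIs over 12118, 10728 and 4354 barcodes. The filters kept 10550, 9407 and 3083 cells, whose median depth was 8783.5, 11297 and 2395 UMIs. Between 13 and 37 barcodes were shared by each pair of libraries. Myelin was depleted during dissociation, and oligodendrocyte-like cells numbered 10, 8 and 86. Cells were classed by markers, so finding those markers in a class is no test of its name. In neuron-like cells all 12 neuron markers had UMIs in each library, and in astrocyte-like cells all 10 astrocyte markers did. Levels below are CPM, the UMIs of a gene scaled by all UMIs of that class in that library, given in the order tumour 1, tumour 2, normal. They compare 1 gene across classes or libraries and say nothing of 1 gene against another.

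**Figure D1:**
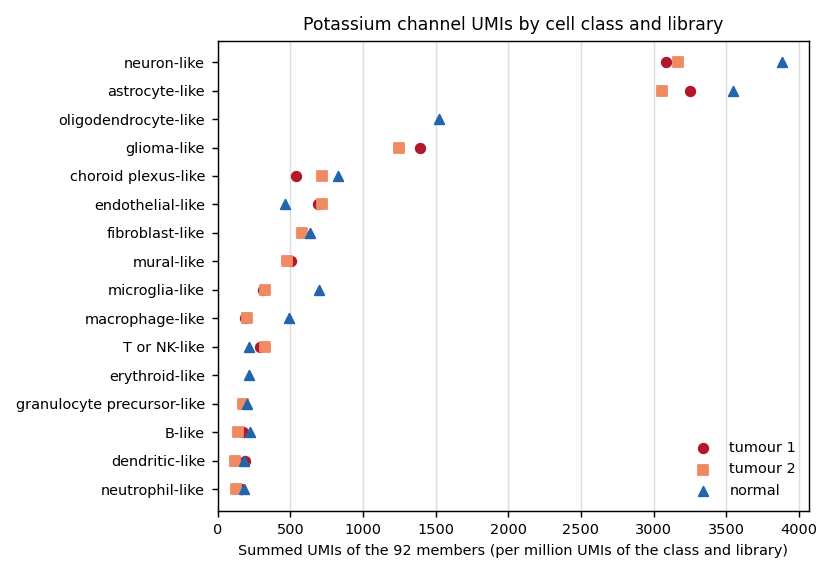
The horizontal axis gives the summed CPM of the 92 members, and each row is a cell class. Points are libraries with at least 20 cells of the class. Neuron-like and astrocyte-like cells lie above 3000 in all 3 libraries, and the glioma-like points lie at 1390 and 1250.

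Summed over the 92 members, the level was 3088, 3168 and 3883 CPM in neuron-like cells and 3252, 3059 and 3550 CPM in astrocyte-like cells. These ranges overlap, so the order of the leading pair was not set by these libraries. Oligodendrocyte-like cells, which reached 20 cells in the normal library alone, had 1522 CPM there, and glioma-like cells followed with 1390 and 1250 CPM in the tumour libraries. The normal library held 1 glioma-like cell, which was not used. Endothelial-like cells had 692, 719 and 460 CPM, choroid plexus-like cells 540, 720 and 825 CPM, and mural-like cells 507 and 480 CPM. Microglia-like cells had 309, 329 and 700 CPM and macrophage-like cells 188, 200 and 489 CPM, so that for both the normal library lay above the tumour libraries. By mean CPM over libraries, 33 of the 90 members with a UMI were highest in neuron-like cells and 12 in astrocyte-like cells. A further 7 were highest in endothelial-like, 6 in glioma-like and 4 in microglia-like cells.

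Each class was tested against the mean of the other classes in 1 edgeR quasi-likelihood model, with the library as a term and Benjamini-Hochberg adjustment over the 15664 genes tested. Of the 92 members, 67 passed its filter on low counts. A member that is high in 1 class only could pass through that class, so the counts that follow describe the 67 and not all members. In neuron-like cells 45 were higher and 2 lower (70.1%), where 53.7% of all genes tested were called, 34.5% higher and 19.1% lower. The median member lay 4.46 above the mean of the other classes on the log2 scale, and the median over all genes lay 0.26 above it. In astrocyte-like cells 26 were higher and 2 lower, with 40.5% of all genes called, 28.9% higher and 11.6% lower. In glioma-like cells 27 were higher and 1 lower, with 38.2% of all genes called, 31.3% higher and 6.87% lower. For these classes the members' share, 41.8% in each, was close to that of all genes. Their median log2 difference was 1.75 in astrocyte-like cells against 0.24 for all genes, and 1.98 in glioma-like cells against 0.45. In endothelial-like cells 15 were higher and 2 lower (25.4%) against 28.2% of all genes, 24.9% higher and 3.28% lower. In mural-like cells 11 were higher and 1 lower (17.9%) against 22.5%, 19.4% higher and 3.06% lower. In choroid plexus-like cells 7 were higher and 0 lower (10.4%) against 24.1%, 17.4% higher and 6.63% lower. In microglia-like cells 6 were higher and 2 lower (11.9%) against 28.8%, 25.8% higher and 2.97% lower. The endothelial-like and mural-like shares were near or below that of all genes, and the choroid plexus-like and microglia-like shares were below it. With DESeq2 and its own size factors the split was 21 higher and 10 lower in glioma-like, 10 and 11 in endothelial-like, and 6 and 25 in microglia-like cells. That scaling moved the median gene from 0.45 to -0.02 in glioma-like, from 0.38 to -0.17 in endothelial-like and from 0.38 to -0.17 in microglia-like cells. Without tumour 2 the endothelial count was 10 rather than 17 and the mural count 4 rather than 12, and without tumour 1 the mural count was 6. Fitted log2 values against classes at 0 depend on the model's prior count, so levels are given for single genes.

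**Figure D2:**
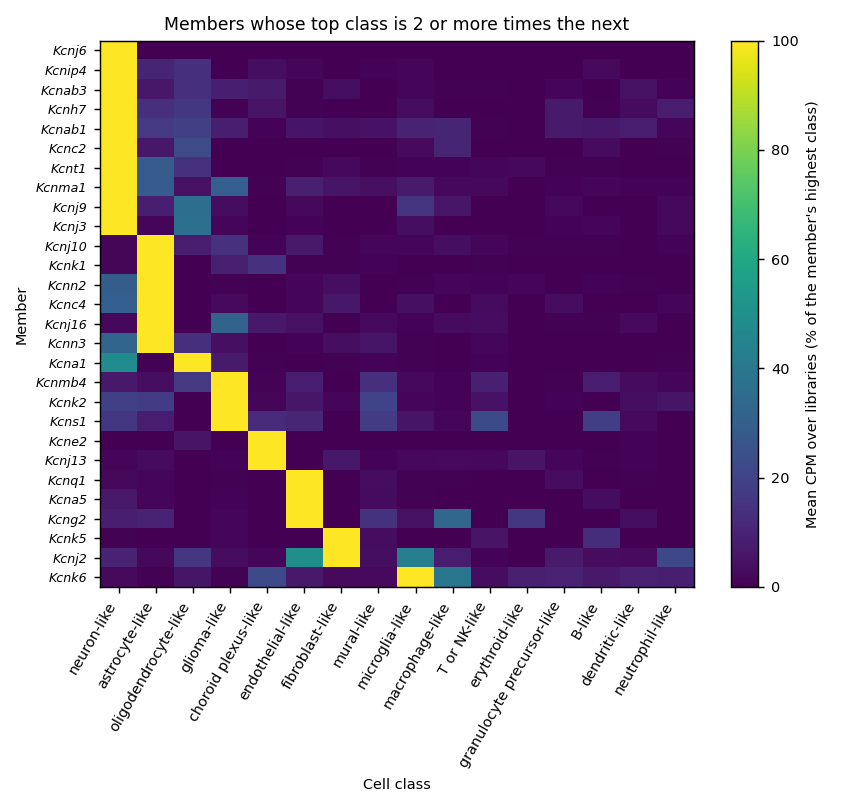
Rows are members with at least 50 UMIs in their highest class and a mean CPM there at least 2 times that of the next class, up to 10 per class and leaving out members not reported here, and columns are cell classes. Colour gives the mean CPM over libraries as a percent of the member's own highest class, so rows are comparable only within themselves. The upper rows peak in neuron-like cells and the next in astrocyte-like cells.

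In neuron-like cells 17 members had at least 50 UMIs and at least 2 times the mean CPM of any other class. They took in voltage-gated, calcium-activated, sodium-activated and G protein-coupled channels. Kcnt1, the sodium-activated channel, stood at 542, 422 and 445 CPM in neuron-like cells and at 203, 137 and 70.2 CPM in astrocyte-like cells, with no overlap. Kcnma1, the pore of the BK channel, was at 170, 197 and 284 CPM in neuron-like cells, and at 70.0 and 59.3 CPM in glioma-like cells. The G protein-coupled inward rectifier Kcnj6 stood at 28.04, 28.4 and 31.3 CPM (16, 24 and 72 UMIs) in neuron-like cells and at 0.070 and 0.122 CPM (7 and 8 UMIs) in glioma-like cells, its next named class, a ratio of means of 304. It was called higher in neuron-like cells by edgeR and not by DESeq2 (adjusted p = 0.271).

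A Kv3 channel and auxiliary subunits had the same first place. Kcnc2, a Kv3 channel of fast-spiking neurons, was at 35.1, 37.8 and 50.4 CPM in neuron-like cells and reached only 0.445, 0 and 7.63 CPM in astrocyte-like cells. The beta subunits Kcnab1 and Kcnab3, which bind the inside of Kv1 channels, stood at 59.6, 48.5 and 42.6 CPM and at 66.6, 54.4 and 84.7 CPM in neuron-like cells. Kcnip4, a calcium sensor that binds Kv4 channels, stood at 57.8, 70.9 and 83.4 CPM, and the ERG channel Kcnh7 at 151, 88.7 and 107 CPM. For each of these genes every neuron-like library lay above the next class, the oligodendrocyte-like cells of the normal library. That class held 18.9 CPM (2 UMIs) for Kcnh7 and 9.45 CPM (1 UMI) for each of the others. Kcna1, a Kv1 channel of axons, was highest in the oligodendrocyte-like cells of the normal library with 577 CPM from 61 UMIs, ahead of neuron-like cells with 233, 247 and 359 CPM.

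In astrocyte-like cells 6 members met the same level rule: 2 inward rectifiers, 1 K2P channel, 2 SK channels and the Kv3 channel Kcnc4. Kcnj10 (chromosome 1, 172341210 to 172374085, GRCm38), the inward rectifier through which astrocytes buffer potassium, stood at 809, 774 and 1309 CPM. Glioma-like cells came next with 138 and 136 CPM, a gap of 7.05 times in means with no overlap. Its partner subunit Kcnj16 was at 157, 162 and 212 CPM in astrocyte-like cells and at 50.0 and 62.7 CPM in glioma-like cells. The K2P channel Kcnk1 was at 862, 765 and 530 CPM in astrocyte-like cells, followed by choroid plexus-like cells with 145, 128 and 36.7 CPM. The SK channel Kcnn2 was at 354, 344 and 339 CPM in astrocyte-like cells and at 103, 102 and 102 CPM in neuron-like cells. Its paralogue Kcnn3 was at 46.7, 71.0 and 85.5 CPM in astrocyte-like and 15.8, 17.7 and 32.6 CPM in neuron-like cells. Kcnc4 followed the same order, at 24.03, 29.9 and 44.3 CPM against 3.51, 15.4 and 10.4 CPM. Kcnd2, a Kv4 channel, did not separate astrocyte-like cells (129, 123 and 188 CPM) from glioma-like cells (127 and 129 CPM), whose values overlapped.

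In glioma-like cells 3 members met the level rule. Kcnk2 (chromosome 1, 189207930 to 189402273, GRCm38), a K2P leak channel opened by membrane stretch and by lipids, stood at 201 and 164 CPM. The next named class was the mural-like one with 50.6 and 23.1 CPM. Kcnmb4, the BK beta subunit best known from neurons, was at 115 and 113 CPM in glioma-like cells, and its next named class was the oligodendrocyte-like one with 18.9 CPM from 2 UMIs. The silent Kv subunit Kcns1 was at 6.99 and 11.5 CPM. Kcnip1 was at 77.0 and 47.0 CPM in glioma-like cells and at 49.1, 41.4 and 45.2 CPM in neuron-like cells, which overlap. Because the members were not used to cluster the cells, these levels were not part of what defined the glioma-like class. Unnamed cells, 1380, 898 and 242 in number, carried Kcnk2 at 135, 56.1 and 14.7 CPM and Kcnmb4 at 84.8, 44.9 and 0 CPM, and were in no test.

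Glioma-like clusters were split by their own markers into quiescent OPC-like, hypoxic-like, cycling-like and matrix-like states. Each state was compared with the quiescent OPC-like one in a joint edgeR quasi-likelihood fit with the library as a term, and 53 members passed its filter. Both states of a pair come from the same mouse. In the hypoxic-like state 1 member was higher and 2 lower (5.66%), where 5.86% of all 15398 genes were called, 3.97% higher and 1.9% lower. In the cycling-like state 3 were higher and 6 lower (17%), against 17.8% of all genes, 11.4% higher and 6.39% lower. In the matrix-like state 7 were higher and 2 lower (17%), against 9.44% of all genes, 6.25% higher and 3.19% lower. The median log2 change of members was -0.004 in the hypoxic-like, -0.24 in the cycling-like and 0.036 in the matrix-like state, with all genes at -0.004, -0.021 and -0.001. By library size alone the higher share of all calls was 45.8% rather than 67.7% in the hypoxic-like and 51.6% rather than 64.1% in the cycling-like state, with 1 and 3 members higher and 2 and 8 lower. With the library left out of the model none of the 53 members passed in any of these 3 comparisons (0, 0 and 0). Each comparison rests on 2 tumours.

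Among the members that rose in the matrix-like state were 4 Kv1 channels, a family that sets the firing threshold in neurons. Kcna1 stood at 117 and 317 CPM in the matrix-like state and at 37.4 and 12.5 CPM in the quiescent OPC-like state. Matrix-like cells were higher in both tumours, and the log2 change was 3.19 ± 0.58 (SE, adjusted p = 0.017, edgeR). Kcna2 rose from 107 and 92.7 CPM to 161 and 218 CPM, a log2 change of 0.90 ± 0.15 (SE, adjusted p = 0.0122, edgeR). Kcna6 rose from 23.0 and 20.6 CPM to 39.6 and 44.6 CPM, a log2 change of 0.93 ± 0.19. Kcna5 had 6 and 2 UMIs in quiescent OPC-like and 10 and 19 UMIs in matrix-like cells, or 0.14 and 0.12 against 1.43 and 3.77 CPM. It had an adjusted p of 0.0068 in the edgeR fit. By mean CPM Kcna5 was highest in endothelial-like cells (10.7 to 44.6 CPM), and the part of their RNA in its change was not tested. The groups of these 4 genes did not overlap.

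Outside the Kv1 family, Kcnq3 rose in the matrix-like state from 50.7 and 42.7 CPM to 73.4 and 57.5 CPM. Kcnk3, a leak channel closed by acid, rose from 2.44 and 1.83 CPM to 4.59 and 5.95 CPM, and Kcnj3 from 0.56 and 0.82 CPM to 1.29 and 4.16 CPM. Kcnk2 fell from 204 and 163 CPM to 166 and 118 CPM, and Kcnh8 from 21.9 and 15.6 CPM to 12.5 and 8.73 CPM. Both Kcnk2 and Kcnh8 were lower in each tumour, although their ranges across tumours overlapped for Kcnk2. At the finer clustering resolution Kcnk2, Kcnk3 and Kcnj3 no longer passed, with adjusted p of 0.0639, 0.0872 and 0.0623 by edgeR, and Kcnj3 missed with DESeq2 as well (adjusted p = 0.0547).

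**Figure D3:**
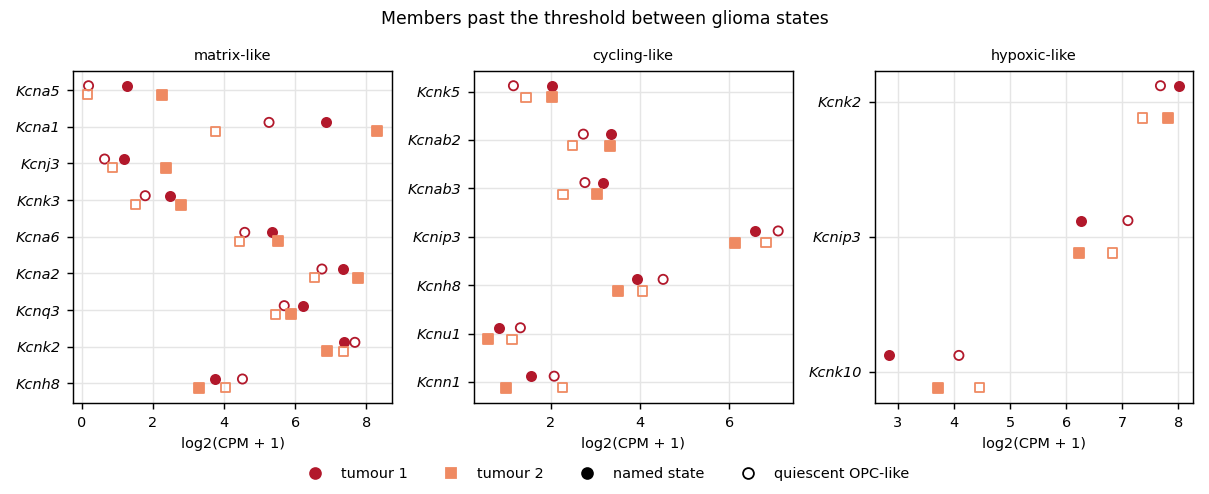
Each row is a reported member past the adjusted p threshold in that state's comparison, with log2(CPM + 1) on the horizontal axis. Filled symbols are the named state and open symbols the quiescent OPC-like state, with circles for tumour 1 and squares for tumour 2. Kcna1 and Kcna5 show the widest gaps, in the matrix-like panel.

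In the hypoxic-like state Kcnk2 was the member that rose, from 204 and 163 CPM to 257 and 224 CPM. The log2 change was 0.46 ± 0.09 (SE, adjusted p = 0.0212, edgeR) and both tumours moved alike. Thus Kcnk2 was above the quiescent OPC-like level in the hypoxic-like state and below it in the matrix-like state. Kcnip3, a calcium sensor of the family that binds Kv4 channels, fell from 136 and 113 CPM to 75.5 and 73.6 CPM. The leak channel Kcnk10 fell from 16.003 and 20.9 CPM to 6.17 and 12.2 CPM, a log2 change of -0.97 ± 0.18.

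In the cycling-like state Kcnip3 also fell, to 94.9 and 69.3 CPM, with a log2 change of -0.56 ± 0.13. Kcnab2, a Kv beta subunit, rose from 5.62 and 4.60 CPM to 9.21 and 9.004 CPM, and Kcnab3 from 5.78 and 3.83 CPM to 8.01 and 7.20 CPM. Kcnk5 rose from 1.23 and 1.71 CPM to 3.07 and 3.05 CPM. Kcnh8 fell to 14.2 and 10.4 CPM, the SK channel Kcnn1 from 3.20 and 3.77 CPM to 1.93 and 0.98 CPM, and Kcnu1 from 1.49 and 1.18 CPM to 0.79 and 0.51 CPM. With DESeq2, Kcnu1 and Kcnh8 no longer passed, with adjusted p of 0.2 and 0.0773, and 1 further member lost its call. At resolution 2.0 Kcnn1 and Kcnu1 missed (adjusted p = 0.0501 and 0.0735, edgeR), Kcnu1 also without the low-count filter (0.0541) and Kcnh8 also with doublets kept and with the stricter cell filter (0.0613 in each).

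Kcnj8 (chromosome 6, 142564837 to 142571614, GRCm38), the pore subunit of the ATP-sensitive channel that relaxes vessels, stood at 156, 212 and 94.97 CPM in endothelial-like and at 120 and 217 CPM in mural-like cells. The mural-like cells of tumours 1 and 2 carried more fibroblast marker signal (3314 and 4759 CPM, 8 of 8 detected in each) than mural marker signal (2046 and 3750 CPM, 9 and 10 of 10 detected), and the part of this in mural-like levels was not tested. For Kcnj8 the endothelial-like and mural-like classes overlapped, and the next class, T or NK-like cells, held 17.9, 24.2 and 8.24 CPM. The KCNQ channel Kcnq1 was at 33.2, 33.3 and 13.9 CPM in endothelial-like cells and at 1.31 and 0.51 CPM in mural-like cells. Kcna5 was at 44.6, 44.4 and 10.7 CPM in endothelial-like cells. In the annotation Kcnq1 overlaps Kcnq1ot1 on the other strand, and Kcnip1 and Kcnmb1 overlap each other, and whether counting used strand is not given in the sources used here. In choroid plexus-like cells Kcnj13, the inward rectifier of fluid-secreting epithelia, stood at 137, 240 and 183 CPM and Kcne2, a beta subunit of KCNQ channels, at 96.7, 198 and 257 CPM. Kcnj13 had 17, 143 and 10 UMIs there and Kcne2 12, 118 and 14. In fibroblast-like cells of tumour 2 and normal, Kcnk5 was at 135 and 117 CPM and Kcnj2 at 109 and 132 CPM, each from at most 32 UMIs a library.

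Tumour-bearing and normal brainstem were compared within a class by summed counts in an edgeR quasi-likelihood fit of 2 tumour libraries against 1 normal library. It has 1 residual degree of freedom, from the tumour pair, and the normal library is assumed to vary like that pair. The smallest p that exact permutation of the 3 library labels allows is 33.3%. In endothelial-like cells (72, 218 and 145) 23 members passed the low-count filter. Of these 14 were higher and 2 lower in tumour (69.6%), where 36.3% of the 11373 genes tested were called, 21.5% higher and 14.8% lower. The median member change was 1.97 on the log2 scale, also with the 4 members at 0 UMIs in normal set to the 3-UMI floor, and the median gene changed by 0.06. A member high in tumour alone could pass the filter through tumour, so this is a description. DESeq2 called 9 higher and 1 lower, and it gave no adjusted p for Kcnn2. By library size alone the median gene was at -0.21 and the higher share of all calls 43.8% rather than 59.2%, with 13 members higher and 2 lower. Tumour and normal endothelial-like cells lay largely in different clusters at resolution 2.0. One cluster (led by genes such as Apln, Angpt2 and Edn1) held 58, 150 and 1 cells, and the other (led by genes such as Slco1a4 and Ly6c1) held 14, 68 and 144. Within the latter, an alternative added after the data were seen and with only 14 cells in tumour 1, 11 members passed the filter. Of the 16 members called above, 3 changed sign and 4 kept their sign, none of them with a call. The rest of the 16 did not pass the filter there, so their calls could not be checked. There 1 member was called, Kcnk6, which was not among the 16. The differences below are over all endothelial-like cells, and tumour against normal cannot be told apart in them from the cluster that holds 1 normal cell. Median depth was 20484 UMIs in that cluster and 6633 UMIs in the shared one.

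Several of these members had no UMI in normal endothelial-like cells. Kcng2, a silent Kv subunit, stood at 44.6 and 44.0 CPM (70 and 337 UMIs) in tumour and at 0 in normal, and its pooled tumour level was at least 13.8-fold higher against a floor of 3 UMIs in the normal sum. Kcne3, a beta subunit of KCNQ channels, stood at 37.6 and 26.9 CPM against 0, at least 8.97-fold higher. Kcnf1, at 26.1 and 13.6 CPM, was at least 4.91-fold higher, and Kcnk2, at 19.8 and 14.0 CPM, at least 4.67-fold higher. In glioma-like cells Kcng2 stood at 0.31 and 0.43 CPM, Kcne3 at 0.02 and 0.03 CPM and Kcnf1 at 0.39 and 0.32 CPM, so these 3 were lower in glioma-like than in endothelial-like cells of both tumours. In macrophage-like cells of the tumours Kcng2 stood at 2.41 and 1.79 CPM, Kcne3 at 0.742 and 0.469 CPM and Kcnf1 at 0 and 0.043 CPM, also lower. The class with the next highest mean was dendritic-like for Kcne3 (11.1 to 12.9 CPM) and mural-like for Kcnf1 (6.68 and 7.22 CPM). For Kcng2 it was macrophage-like, with 25.1 CPM in the 28 cells of the normal library. The part of other cells in the endothelial-like levels was not tested. In the cluster that tumour and normal share, which held 14, 68 and 144 cells, Kcng2 and Kcnf1 had 0 UMIs in each library and Kcne3 had 0, 1 and 0 UMIs. Kcnk2 stood at 201 and 164 CPM in glioma-like cells, above its endothelial-like level.

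Kcna5 stood at 44.6 and 44.4 CPM in tumour and at 10.7 CPM in normal, a log2 change of 2.32 ± 0.43 (SE, adjusted p = 4.37e-04, edgeR). Kcnq1 stood at 33.2 and 33.3 against 13.9 CPM. The pore Kcnj8 was at 156 and 212 CPM in tumour against 94.97 CPM in normal. Kcnma1 and its smooth-muscle partner Kcnmb1 were both higher, Kcnma1 at 34.4 and 19.3 against 3.20 CPM (3 UMIs, ratio 6.84, 95% counting interval 2.31 to 33.4) and Kcnmb1 at 26.8 and 24.01 against 10.7 CPM. Kcnip3, Kcnmb4 and Kcnj15 each had 1 UMI in normal. Their ratios were 15.1 (2.67 to 601), 11.1 (1.94 to 441) and 10.2 (1.78 to 405), with intervals that cover counting error only. Glioma-like cells held Kcnip3 at 81.6 to 110 CPM and Kcnmb4 at 113 to 115 CPM. In tumour endothelial-like cells Kcnip3 was lower, at 26.1 and 14.1 CPM, and so was Kcnmb4, at 12.8 and 11.6 CPM. The part of glioma RNA in these levels was not tested. With DESeq2, Kcnmb4, Kcnq1, Kcnj15, Kcnmb1 and Kcnj2 no longer passed. Kcnj2 stood at 40.8 and 99.7 CPM in tumour and at 40.5 CPM in normal, so it was raised in tumour 2 and level in tumour 1. Within the shared cluster Kcna5 stood at 9.73, 12.4 and 10.7 CPM and Kcnj8 at 102, 69.8 and 95.2 CPM, so normal lay between the tumours for both genes. In the tumour 1 sum of that cluster 3 UMIs are 14.6 CPM. Kcna5 was below that level there, so the order of the libraries is not set for it. In the cluster with 1 normal cell Kcna5 stood at 49.9 and 50.5 CPM and Kcnj8 at 164 and 239 CPM in tumours 1 and 2.

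Kcnj10 and Kcnn2, which were highest in astrocyte-like cells, were lower in tumour over all endothelial-like cells. Kcnj10 stood at 26.1 and 28.3 CPM in tumour against 139 CPM in normal, a log2 change of -2.07. Kcnn2 stood at 1.27 and 1.04 against 11.7 CPM, from only 2, 8 and 11 UMIs. Within the shared cluster Kcnj10 stood at 68.1, 102 and 139 CPM and Kcnn2 at 9.73, 6.98 and 11.8 CPM, neither past the threshold by edgeR (adjusted p = 0.319 and 0.779). The Kcnn2 value of tumour 1 in that cluster lies below 14.6 CPM, the level of 3 UMIs in its sum. Markers of other cells moved with these results. All 10 astrocyte markers had UMIs in each library and summed to 319, 408 and 1273 CPM in endothelial-like cells. Of the 8 glioma markers 8, 8 and 4 had UMIs, with sums of 430, 380 and 71.5 CPM against 4697 and 4126 CPM in glioma-like cells, and the 10 microglia markers summed to 6363, 6513 and 3334 CPM. The endothelial markers themselves summed to 7176, 6710 and 19866 CPM and the mural markers to 2128, 2555 and 5651 CPM. Their part in the result was not tested.

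**Figure D4:**
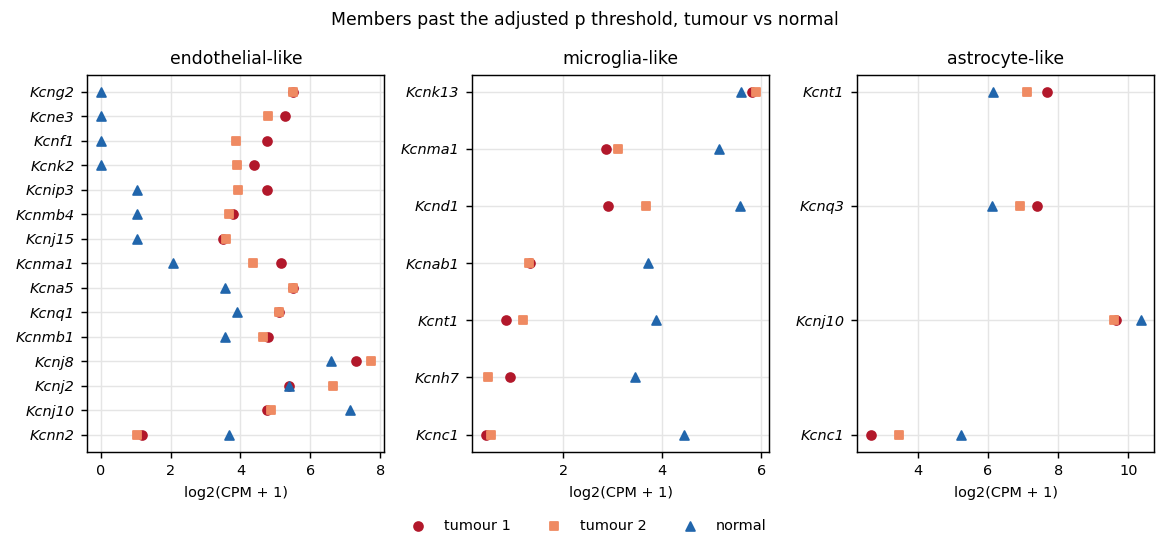
Each row is a reported member past the adjusted p threshold between tumour and normal, with log2(CPM + 1) on the horizontal axis and 1 point per library. In the endothelial-like panel most members lie to the right in both tumours, over all endothelial-like cells together. In the microglia-like panel every member shown but Kcnk13 lies to the right in normal.

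Kcnk6 (chromosome 7, 29221926 to 29232515, GRCm38) stood at 124, 129 and 247 CPM in microglia-like and at 35.8, 46.9 and 113 CPM in macrophage-like cells. Kcnk13 (chromosome 12, 99964499 to 100062682, GRCm38), the channel behind the resting potassium conductance of microglia, stood at 55.1, 58.3 and 47.2 CPM in microglia-like and at 29.4, 35.8 and 37.6 CPM in macrophage-like cells. By mean CPM both classes lay above the rest for these genes. Direct comparison of microglia-like with macrophage-like cells called 5 members higher and 2 lower of 67 (10.4%), against 10.3% of all genes, 5.46% higher and 4.83% lower, so the members' share was that of all genes. By library size alone the higher share of all calls was 75.1% rather than 53.1%, with the same split of members. Kcnk6, Kcnk12, Kcnd1, Kcnj2 and Kcnma1 were higher in microglia-like cells, while Kcnab2 and Kcnn4 were lower. Kcnn4, the intermediate-conductance calcium-activated channel of immune cells, stood at 16.8, 24.4 and 0 CPM in macrophage-like cells, the 0 being 28 cells. In T or NK-like cells it stood at 26.8, 55.0 and 24.7 CPM. Its highest class was the erythroid-like one, at 135 CPM from 28 UMIs. That value comes from 25 cells of the normal library, the only one with at least 20 such cells. Kcna3, the Kv1 channel of T cells, had only 14, 12 and 0 UMIs in microglia-like cells and 1, 1 and 0 in T or NK-like cells, too few to place it. Of the 67 members 4 were called between microglia-like and macrophage-like cells without tumour 2, and 12 without the normal library.

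Between tumour and normal, 43 members passed the filter in microglia-like cells (3179, 3365 and 729 cells). Of these 1 was higher and 8 lower in tumour (20.9%), and 20.9% of the 15015 genes were called, 14% higher and 6.91% lower. The share of members called equalled that of all genes. The median member change was -0.86 and the median gene change 0.12 on the log2 scale. With the 3 members at 0 UMIs in normal set to the 3-UMI floor the members' median was -1.22. TMM scaling shifted all changes in this class: by library size alone the median gene was at -0.45, 0 members were higher and 16 lower, and the higher share of all calls was 26.1% rather than 66.9%.

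Kcnk13 was the member called higher, with a log2 change of 0.83 (adjusted p = 0.0474, edgeR). Its CPM of 55.1 and 58.3 in tumour and 47.2 in normal differ by a ratio of 1.21, and it no longer passed with DESeq2 (adjusted p = 0.152), with the stricter cell filter (0.0569) or by library size alone (0.469). The Kv4 channel Kcnd1 fell from 46.4 CPM in normal to 6.46 and 11.7 CPM, and Kcnma1 from 34.3 CPM to 6.26 and 7.59 CPM. Kcnc1, Kcnt1, Kcnh7 and Kcnab1 fell as well. These 4 and Kcnma1 had their highest level in neuron-like cells, and the 4 were below 21 CPM in normal microglia-like cells. Kcnc1, for example, stood at 0.35, 0.46 and 20.6 CPM (7, 16 and 27 UMIs) in microglia-like cells and at 184, 225 and 264 CPM in neuron-like cells. Neuron markers moved with these genes: all 12 had UMIs in each library and they summed to 98.3, 130 and 1186 CPM in microglia-like cells, against 60729, 61135 and 53694 CPM in neuron-like cells. Their part in the result was not tested. Homeostatic clusters held 1481 of 3179, 890 of 3365 and 685 of 729 microglia-like cells. Over the whole class, tumour against normal cannot be told apart from this difference in state. The single cluster that holds most normal microglia-like cells (95, 739 and 655 cells) was tested as an alternative added after the data were seen. There 15 members passed the filter and 2 were called, Kcnc1 and Kcnma1. Another 5 of the 9 members called above lost their call, and the rest of the 9 did not pass the filter.

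Activated clusters (led by genes such as Hmox1 and Spp1) were compared with homeostatic ones within the tumour libraries, again with the library as a term. Of 19 members that passed the filter 2 were higher and 7 lower in activated cells (47.4%), where 57.4% of the 11993 genes were called, 29.9% higher and 27.5% lower. The members' share was below that of all genes. The median member change was -0.34 and the median gene change -0.04. By library size alone the median gene was at -0.66, 1 member was higher and 11 lower, and the higher share of all calls was 19.4% rather than 52.1%, so changes are relative to that shift. Homeostatic cells came mainly from 1 cluster in tumour 1 (1386 of 1481) and from another in tumour 2 (739 of 890), with median depths of 3013 and 3465 UMIs, against 8613 UMIs in the main activated cluster. The part of depth in the result was not tested. Kcnk6 stood at 66.8 and 84.1 CPM in activated and at 213 and 237 CPM in homeostatic cells, with a log2 change of -0.96 ± 0.12 (SE, adjusted p = 1.46e-06, edgeR). In homeostatic cells of the normal library it stood at 258 CPM. Kcnd1 stood at 2.37 and 5.24 CPM against 11.7 and 31.0 CPM, with 50.0 CPM in normal, and Kcnk12, a K2P subunit, at 3.101 and 1.07 against 10.1 and 15.0 CPM. Kcnip3 fell from 25.04 and 20.5 CPM to 5.84 and 4.00 CPM, with 8.19 CPM in homeostatic cells of the normal library. By mean CPM Kcnip3 was highest in astrocyte-like (109 to 151 CPM) and next in glioma-like cells (81.6 to 110 CPM). The part of RNA from those cells in its change was not tested.

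The neighbouring inward rectifiers Kcnj9 and Kcnj10 both fell in activated cells. Kcnj9 stood at 0.36 and 0.44 CPM in activated (2 and 5 UMIs) and at 6.91 and 12.0 CPM in homeostatic cells, a log2 change of -3.95 ± 0.45. Kcnj10 stood at 13.1 and 10.4 against 33.9 and 21.8 CPM, with 23.8 CPM in homeostatic cells of the normal library. Kcnj10 was highest in astrocyte-like and next in glioma-like cells, and the part of their RNA in its change was not tested. For both Kcnj9 and Kcnj10 the states did not overlap, and Kcnj10 no longer passed with DESeq2 (adjusted p = 0.179). Kcna6 had 5 and 5 against 15 and 10 UMIs and lost its call in 6 of the other settings or fits. Kcnab2 rose, from 5 and 5 UMIs (1.08 and 1.25 CPM) to 18 and 44 UMIs (3.28 and 3.91 CPM). Kcnj2 was called higher with a log2 change of 0.59 ± 0.21 (adjusted p = 0.024, edgeR), but it stood at 17.9 against 32.6 CPM in tumour 1 and at 65.7 against 45.3 CPM in tumour 2. The tumours went opposite ways, and its fitted change was -0.041 by library size alone and -0.19 with doublets kept.

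**Figure D5:**
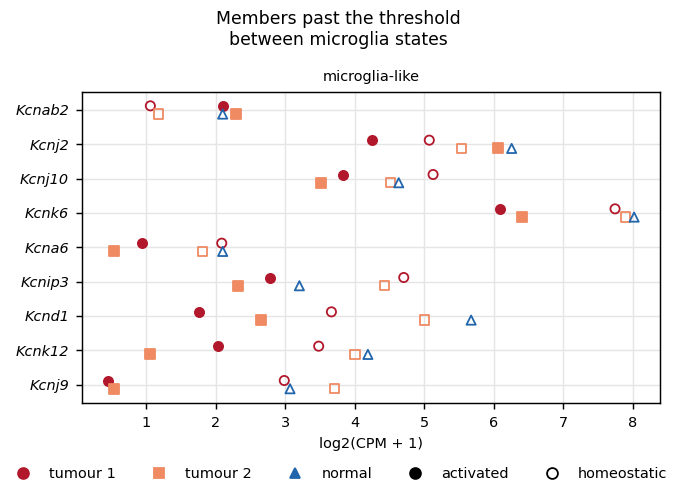
Each row is a member past the adjusted p threshold, with log2(CPM + 1) on the horizontal axis. Filled symbols are activated and open symbols homeostatic microglia-like clusters, with triangles for the normal library, which had under 20 activated cells and was not in the test. Kcnk6, Kcnd1, Kcnk12 and Kcnj9 lie to the left in activated cells of both tumours.

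Promoter sequence is shown for 3 of the members that fell together in activated cells, Kcnj9, Kcnj10 and Kcnk12, and for Kcnk13 as the K2P channel of microglia. RefSeq windows (GRCm38.p6, from 250 bases before to 50 after a gene start, read 5′ to 3′ on the gene's strand) were matched by symbol for 67 of the 92 members. Kcnj9 and Kcnj10 lie on opposite strands of chromosome 1 with their starts facing each other and 11891 bases between the genes. Capitals mark GAGGAA, the purine-rich core bound by ETS factors such as PU.1, searched on both strands, so that TTCCTC is its reverse complement.
Kcnj9, chr1:172329273-172329572, minus strand: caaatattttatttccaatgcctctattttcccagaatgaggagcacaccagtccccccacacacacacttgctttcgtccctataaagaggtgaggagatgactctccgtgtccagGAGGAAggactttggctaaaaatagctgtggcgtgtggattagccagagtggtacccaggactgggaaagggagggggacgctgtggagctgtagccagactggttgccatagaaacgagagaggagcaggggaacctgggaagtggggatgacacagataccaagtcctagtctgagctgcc
Kcnj10, chr1:172340960-172341259, plus strand: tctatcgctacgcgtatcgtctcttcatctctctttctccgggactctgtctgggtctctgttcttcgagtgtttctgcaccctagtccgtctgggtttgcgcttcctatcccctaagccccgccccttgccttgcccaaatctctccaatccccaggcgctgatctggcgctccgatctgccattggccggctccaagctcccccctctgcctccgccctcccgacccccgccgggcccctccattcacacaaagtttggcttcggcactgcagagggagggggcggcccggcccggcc
Kcnk12, chr17:87797945-87798244, minus strand: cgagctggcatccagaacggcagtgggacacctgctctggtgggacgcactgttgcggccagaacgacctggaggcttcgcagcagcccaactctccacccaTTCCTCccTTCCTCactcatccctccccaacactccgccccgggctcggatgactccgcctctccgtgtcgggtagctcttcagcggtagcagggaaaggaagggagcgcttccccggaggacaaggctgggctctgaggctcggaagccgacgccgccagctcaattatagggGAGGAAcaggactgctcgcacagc
Kcnk13, chr12:99964249-99964548, plus strand: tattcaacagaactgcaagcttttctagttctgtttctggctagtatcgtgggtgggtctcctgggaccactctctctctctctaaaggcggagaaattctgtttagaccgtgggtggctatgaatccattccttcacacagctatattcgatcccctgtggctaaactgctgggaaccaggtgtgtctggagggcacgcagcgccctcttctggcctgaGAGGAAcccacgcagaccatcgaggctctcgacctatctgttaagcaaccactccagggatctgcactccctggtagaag
The letters occur 1 time in the Kcnj9 window, 3 times in Kcnk12 (1 forward and 2 reverse), 1 time in Kcnk13 and 0 times in Kcnj10. Of all 32851 windows 28.3% hold them, and of the 92 windows of members 29.3%. A match is a description of the letters only. The windows also differ in CG pairs, with 21 in Kcnj10, 20 in Kcnk12, 9 in Kcnk13 and 5 in Kcnj9, where the median over all windows is 7 and over members 9.

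In astrocyte-like cells (451, 123 and 195) 24 members passed the filter, and 2 were higher and 3 lower in tumour (20.8%), where 7.26% of the 9967 genes were called, 4.1% higher and 3.16% lower. The median member change was -0.53 and the median gene change 0.01 on the log2 scale. Kcnj10 stood at 809 and 774 CPM in tumour and at 1309 CPM in normal, a log2 change of -0.78, and both tumours lay below normal. Kcnt1 stood at 203 and 137 against 70.2 CPM and Kcnq3 at 168 and 120 against 68.7 CPM, both higher in tumour. Kcnc1 stood at 5.34 and 9.98 against 36.6 CPM, lower in tumour. With DESeq2 1 of the 5 passed, 2 missed and 2 got no adjusted p, and with doublets kept 10 members passed, 3 of them among the 5. Kcnt1 and Kcnq3 missed under both (adjusted p = 0.0999 and 0.224 by DESeq2), and Kcnc1 missed with the stricter cell filter (adjusted p = 0.42, edgeR). Astrocyte markers summed to 22845, 21157 and 23066 CPM and neuron markers to 143, 154 and 646 CPM, with 9, 6 and 8 of 12 having UMIs. The part of the neuron markers in the result was not tested. In this class the prior degrees of freedom were infinite, so p-values rest on a spread pooled over genes.

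In neuron-like cells (171, 307 and 606) 0 of 44 members passed between tumour and normal, where 2.31% of the 10908 genes did, 1.99% higher and 0.321% lower. Unadjusted p under 0.05 was found for 5 members in the edgeR fit, and DESeq2 called 0. The 5 were Kcna2, Kcnj3, Kcnab2, Kcnk9 and Kcnq5, and the smallest adjusted p was 0.171, for Kcna2 at a log2 change of -0.91 ± 0.29. The median member change was -0.27 and the median gene change 0.02. These 5 genes were named after their values were seen. With doublets kept 4 members passed, all lower in tumour, and 1 did with the stricter cell filter and at the finer resolution.

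Genes that work beside these channels were counted in the same fits. The lists were 15 potassium pump and cotransport genes, which move potassium against its gradient, and 18 channel partner genes outside the symbol rule. In microglia-like cells 3 pump or cotransport genes were higher and 3 lower in tumour of 15 tested, and 0 partner genes higher and 4 lower of 13, where 14% of all genes were higher and 6.91% lower. Slc12a5, the neuronal chloride cotransporter, had a log2 change of -4.75 and Atp1b1 of -2.49. In endothelial-like cells 4 were higher and 4 lower of 13 against 21.5% and 14.8% of all genes, with Slc12a4 at 2.01 and Atp1b2, a beta subunit of the glial pump, at -1.72. In astrocyte-like cells 0 were higher and 1 lower of 12 against 7.26% of all genes in either direction, and in neuron-like cells 0 of 11 passed against 2.31%. Between glioma states 5 were higher and 1 lower of 15 in the matrix-like state, 2 and 0 in the hypoxic-like and 0 and 1 in the cycling-like state, where 9.44%, 5.86% and 17.8% of all genes were called. Atp1b1 rose by 1.05 in the hypoxic-like state. In activated microglia-like cells 6 of 12 were higher and 1 lower, against 29.9% and 27.5% of all genes, with Atp1b3 at 1.01. These log2 values are edgeR fits with adjusted p below the threshold of 0.05.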

How the data were processed

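Brainstem cells of 2 tumour-bearing mice and 1 normal brainstem were profiled with the 10x 3' chemistry. The deposited matrices hold raw UMI counts (whole numbers, not normalized). The file headers name Cell Ranger 6.1.2, and the submitters' processing notes list mm10. Whether counting used strand or introns is not given in the sources used here. Barcodes were kept with at least 500 UMIs, 300 genes and at most 15% mitochondrial UMIs. Doublets called by Scrublet (expected rate 8%; 3.43%, 2.47% and 1.47% of cells) were removed. Cells were clustered with scanpy 1.11.5 (2000 variable genes, 30 components, 15 neighbours, Leiden resolution 1.0), without integration and without the 92 members and 5 antisense genes, and clusters were named from 17 marker lists (mean log2 score of at least 1 with 3 markers in 10% of cells). Names are rebuilt from markers, hence "-like". A cluster that failed all 17 lists was named microglia-like if its activated-state list met the same rule and its microglia score exceeded its macrophage score. The main activated cluster (1371 cells) was named this way, with a microglia score of 0.809 and an activated score of 2.167. Clusters stayed unnamed if they met no rule or had under 20 cells. So did those with more top genes of another class, or with low depth and no top gene from their own list. Counts were summed per class or state and library (at least 20 cells) and tested with edgeR 4.0.16 in R 4.3.3 (filterByExpr, TMM, glmQLFTest, Benjamini-Hochberg, threshold 0.05). Alternatives were library size alone, DESeq2 1.42.0, no low-count filter, a stricter cell filter (1000 UMIs, 500 genes, 10% mitochondrial), doublets kept, resolution 2.0, no library term, each library left out and, added after the data were seen, the single microglia-like or endothelial-like cluster with most normal cells. States and classes of 1 library come from the same mouse, so the library is the pairing. The mice are told apart only by their titles, so the spread behind a p-value is that of these libraries and may be technical. Named were members called between tumour and normal (up to 25 a test) or between states (up to 15), members at least 2 times higher in 1 class (up to 10 a class), and 11 members chosen for their known roles. The members, marker lists and gene lists were chosen with earlier results of these data known. For some of the comparisons the tests were tried on simulated counts with 200 changed genes. These counts had the same spread for every gene, so they do not show how the tests perform on these data. Intervals are exact, at 95%, and cover counting error only. Some genes that the naming rule selects are counted in totals but not reported singly here.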

Additional observations from a re-analysis of the deposited data

How the results depend on the processing

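No paired analysis was possible because the tumour and normal groups are different mice and the normal group has 1 library. In the class and state comparisons, where the library is the replicate block, leaving out the block gave 29 members called in glioma-like cells, 47 in neuron-like, 28 in astrocyte-like, 16 in endothelial-like, 11 in mural-like, 7 in choroid plexus-like and 8 in microglia-like cells, 6 between microglia-like and macrophage-like cells, 0, 0 and 0 in the 3 glioma states, and 6 between microglia states. For tumour against normal in microglia-like cells the count of 9 became 16 by library size alone and 16 without a low-count filter. Within the cluster of most normal microglia it became 2, with 15 members past the filter there. In neuron-like cells the count of 0 became 1 with the stricter cell filter, 4 with doublets kept and 1 at resolution 2.0. In endothelial-like cells 16 became 10 with DESeq2 (5 missed and 1 had no adjusted p). Within the cluster of most normal endothelial cells 1 member was called, none of the 16, with 11 members past the filter there. In astrocyte-like cells 5 became 1 with DESeq2 (2 missed and 2 had no adjusted p) and 10 with doublets kept. Microglia-like cells against other classes went from 8 to 31 with DESeq2 and 13 with the stricter cell filter. The hypoxic-like count of 3 became 5 without a low-count filter and 7 with the stricter cell filter, the cycling-like count of 9 became 14 with the stricter cell filter, and the matrix-like count of 9 became 22 without a low-count filter. Kcnj2 in activated microglia-like cells reversed, to -0.041 by library size alone and -0.19 with doublets kept. Within the cluster of most normal endothelial cells the tumour against normal change reversed for Kcnq1 (-1.69), Kcnj2 (-0.36) and Kcnj8 (-0.15). The cause was not tested. Leaving out each library in turn gave 23 to 31 members in glioma-like, 40 to 45 in neuron-like, 23 to 25 in astrocyte-like, 10 to 17 in endothelial-like, 4 to 15 in mural-like, 5 to 7 in choroid plexus-like and 6 to 7 in microglia-like cells, and 4 to 12 between microglia-like and macrophage-like cells. With 1 tumour library against normal only values without a test were possible: without tumour 1 the change of 6 of the 16 endothelial-like and 2 of the 5 astrocyte-like members moved by more than its SE, and without tumour 2 that of 8 and 1, and no test was possible for states with 1 library. The mural-like and matrix-like comparisons gave no value under the stricter cell filter. The normal library, with a median of 2395 UMIs a cell, limits what can be detected: 3 UMIs are 2.28 CPM in its microglia-like and 4.58 CPM in its astrocyte-like cells.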
